A study of Mus musculus with 9 samples.

Results

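The 4 Janus kinases Jak1, Jak2, Jak3 and Tyk2 and 5 STAT transcription factors (Stat3, Stat4, Stat5a, Stat5b and Stat6) were followed by their gene symbols in RNA sequencing of mouse blood progenitors, as 9 of the 38215 genes in the table. All 9 passed the filter on low counts and were among the 14944 genes tested. The cells came from bone marrow of C57BL/6J mice given tamoxifen, and were sorted as LSK cells (Lineage-, Sca1+, Kit+), where blood stem cells and multipotent progenitors are found. They were also positive for GFP and mCherry. The EV group was 5 mice (numbered 1 to 5) of genotype Jak2V617F, and the labels do not spell out EV. The sgZrsr2 group was 4 mice (numbered 1, 2, 3 and 5) of genotype Jak2V617F-sgZrsr2, described as having lost Zrsr2, a factor of the minor spliceosome. Every mouse of both groups therefore carried the Jak2 mutation, and no group with normal Jak2 was analysed here. The mice were sampled at a terminal time point, and neither their age nor the driver of the tamoxifen-dependent step is given in the labels.

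Janus kinases are tyrosine kinases bound to the inner part of cytokine receptors that have no kinase activity of their own. When a cytokine draws receptor chains together, the kinases activate each other and phosphorylate the receptor and then STAT proteins, which pair, enter the nucleus and switch on target genes. In blood progenitors Jak2 serves the receptors for thrombopoietin and erythropoietin, and Stat5a and Stat5b carry much of that signal. The Jak2V617F change lies in the pseudokinase domain, which normally restrains the kinase, and it drives myeloproliferative neoplasms. Activity is set by phosphorylation, which transcript counts do not show.

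The study's shared mutation falls in the codon shown here in capitals within the reference coding sequence of mouse Jak2 (GENCODE M21), because mice of both groups carry it.
Jak2 mutated codon and its flanks: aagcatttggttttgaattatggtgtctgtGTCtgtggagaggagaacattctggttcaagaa
This codon lies in exon 13 of 24 of the longest coding transcript, on chromosome 19 from 29294928 to 29294930 (GRCm38), on the plus strand. Gene counts add up all Jak2 transcripts, so the mutant and the normal allele were not told apart.

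Stat5a and Stat5b are near copies, and this bears on how far their counts can be separated. Their coding sequences were identical at 2081 of 2294 aligned bases (90.7%), against 58.3% to 65.3% for the other pairs of the 5 STAT genes and 59.2% to 64.6% for pairs of Janus kinases. The longest run shared by the 2 coding sequences was 324 bases. Around the end of that run a single base, in capitals, tells the genes apart, whereas the last 60 coding bases, with the stop codon in capitals, are unlike each other.
Stat5a at the end of the run: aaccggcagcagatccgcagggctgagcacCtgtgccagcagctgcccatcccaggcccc
Stat5b at the end of the run: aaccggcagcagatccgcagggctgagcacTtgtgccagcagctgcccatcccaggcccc
Stat5a end: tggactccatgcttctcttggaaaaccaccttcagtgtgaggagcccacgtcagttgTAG
Stat5b end: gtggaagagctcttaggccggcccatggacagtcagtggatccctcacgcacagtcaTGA
Of the 50-base words in annotated Stat5a transcripts 8.21% also occurred in Stat5b, and of those in Stat5b 11% occurred in Stat5a. RSEM divides such reads between genes. Counts of both genes were fractional in all 9 libraries, so their split is an estimate and their sum is firmer than either.

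Jak3 had fractional counts as well. The gene Insl3, which encodes a peptide hormone, lies inside the Jak3 locus on the same strand and shared 6.53% of the Jak3 words. It was given counts equal to 0.87% to 2.42% of those of Jak3, so the division was small. Counts of the remaining 6 members were whole in all 9 libraries (to within 0.005). Of these, Stat4 shared 840 of its 3871 words (21.7%) with Gm28177 in the GENCODE M21 transcripts. Among the genes of the deposited counts, only Gm3940, on the minus strand and with 0 to 11.08 counts, overlapped Stat4. The whole counts of Stat4 thus show no division of its reads, and the effect of the shared words on its level was not tested. Whether the counting used strand is not given in the sources used here. This matters most for Tyk2, which lies entirely within the antisense gene 1700084C06Rik, although that gene had at most 2.1% of the Tyk2 counts. Stat3 and Stat5a face each other on chromosome 11 and overlap by 72 bases at their 3' ends.

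Library totals ran from 23238264 to 45585531 counts, and the 9 genes had at least 932 counts in every library, where counting error alone is 3.28% (Stat4). All 10 LSK markers were at 1 CPM or more in all libraries, with Kit at 247 to 632 CPM, Cd34 at 544 to 705 CPM and Ly6a, which encodes Sca1, at 14.8 to 49.3 CPM (CPM is a gene's count relative to its library's total, here with TMM scaling between libraries). Zrsr2 had means of 53.4 ± 4.94 CPM (SD, n = 5) in EV and 38.9 ± 5.3 CPM (SD, n = 4) in sgZrsr2 libraries, without overlap (edgeR adjusted p = 0.714, exact permutation p = 0.0159). Of the markers of mature cells, the summed level of 10 erythroid genes was 93.8 CPM in EV mouse 5, with 190.1 and 133 CPM in sgZrsr2 mice 3 and 5, and 6.64 to 10.5 CPM in the other 6 libraries. Only 1 of these erythroid genes was at 1 CPM or more in all libraries. The sum of 11 megakaryocyte genes was also highest in EV mouse 5 and sgZrsr2 mice 3 and 5, at 330.2 to 535 CPM against 135 to 291 CPM. Other sums followed these 3 libraries in part or not at all. Mast cell and basophil genes were at 109, 81.3 and 157 CPM in EV mouse 5 and sgZrsr2 mice 3 and 5. They were at 93.1 CPM in EV mouse 4 and at 39 to 55 CPM in the rest. Dendritic genes ran from 142 CPM (EV mouse 4) to 782 CPM (EV mouse 1), and monocyte genes from 480 CPM (sgZrsr2 mouse 3) to 1025 CPM (EV mouse 3). Mature neutrophil genes ran from 17.5 CPM (EV mouse 2) to 227 CPM (sgZrsr2 mouse 3), with 195 CPM in EV mouse 5 but 33.3 CPM in sgZrsr2 mouse 5. In bulk RNA a different share of cells and a different amount of RNA per cell cannot be told apart. The labels number the mice, and p-values set a group difference against the spread between these samples, taken as independent. The closest libraries of a group were sgZrsr2 mice 1 and 2, whose chi-square over 14063 genes was 9.56 when divided by its degrees of freedom, followed by EV mice 1 and 2 at 16.8, while the remaining pairs lay at 56.3 to 163. Counting noise alone gives about 1, but PCR from little RNA can also raise the value, so it does not settle whether libraries share a source. Each library was kept as 1 sample because the labels give it its own mouse. If libraries did share a source, the p-values would rest on fewer independent samples than counted.

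Between sgZrsr2 and EV, the quasi-likelihood test of edgeR called none of the 9 genes at an adjusted threshold of 0.05, and no other of the 14944 genes (0% called). With DESeq2 the count was 16 genes, none of them among the 9. At an unadjusted p under 0.05 there were 0 of the 9, where 6.85% of all genes passed (1024 genes; 3.87% higher and 2.98% lower with sgZrsr2). The EV and sgZrsr2 libraries overlapped in all 9 genes, and over all genes 3.06% did not overlap (1.75% with sgZrsr2 above and 1.32% below). The differences were small: 6 log2 fold changes were above 0 and 3 below, with a median of 0.16 beside -0.01 over all genes, of which 48.5% were above 0. The largest of the 9 was 0.27, and the standard errors ran from 0.11 to 0.26.

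**Figure D1:**
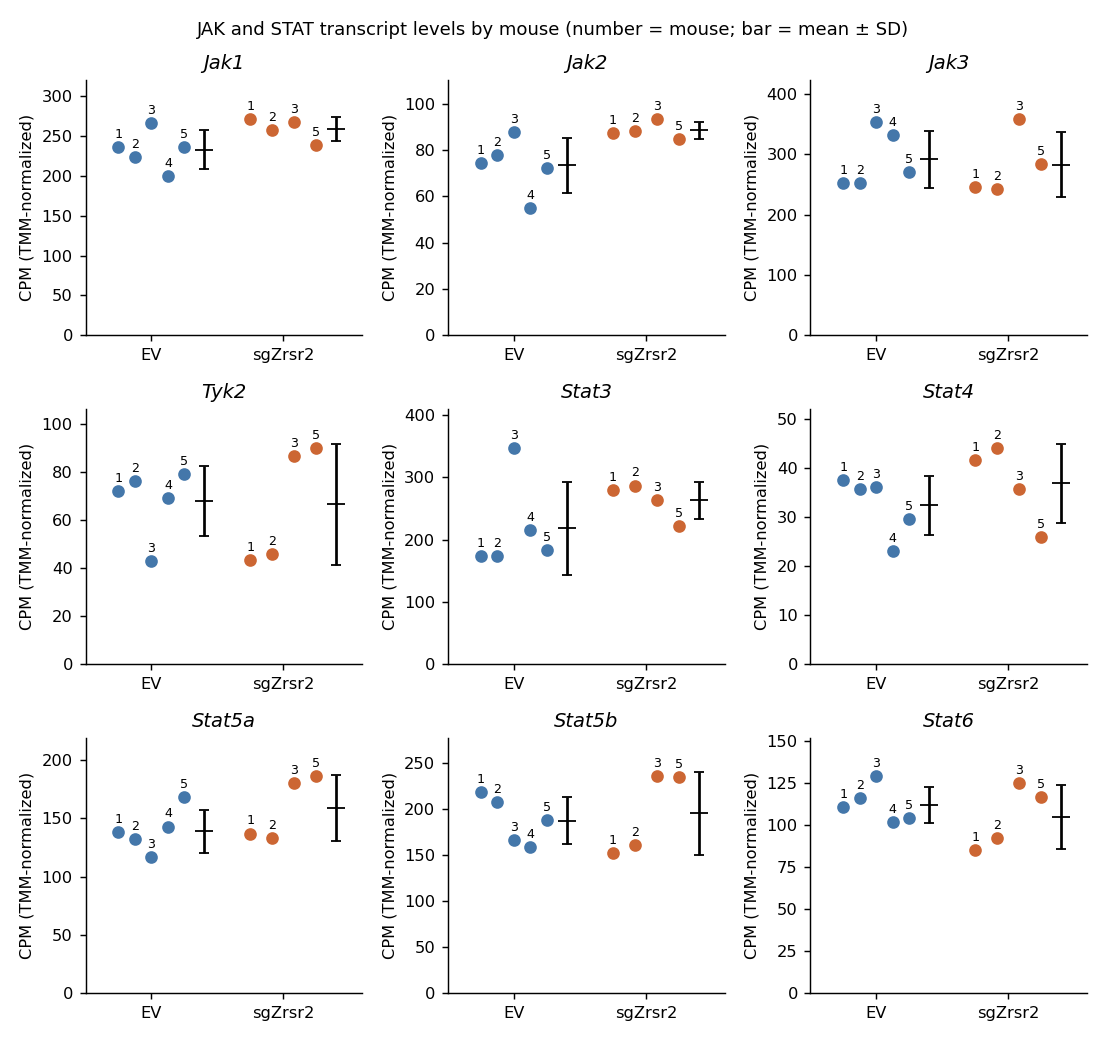
TMM-normalized CPM (vertical axes, from 0) of each of the 9 genes in the 5 EV and 4 sgZrsr2 libraries, with the mouse number beside each point and the group mean ± SD as a bar. The groups overlap in all 9 panels; Jak2 has its 4 sgZrsr2 libraries close together at 84.7 to 93.5 CPM, and Tyk2 has 3 libraries, from both groups, at 42.9 to 46 CPM.

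Among the kinases, Jak2 came nearest to a difference. Jak2 (ENSMUSG00000024789; chromosome 19, 29251828 to 29313080, plus strand) had 74.2, 77.8, 87.6, 54.7 and 72 CPM in EV mice 1 to 5. With sgZrsr2 it was at 87.3, 88.2, 93.5 and 84.7 CPM in mice 1, 2, 3 and 5. All 4 sgZrsr2 libraries lay above 4 of the 5 EV libraries, and EV mouse 3 lay within their range. The means were 73.3 ± 12 (SD, n = 5) and 88.4 ± 3.69 CPM (SD, n = 4). Its log2 fold change was 0.27 (SE 0.13, 95% interval -0.01 to 0.55), with a two-sided exact permutation p of 0.0476 and an edgeR adjusted p of 0.714. It was the 1 gene of the 9 with an exact permutation p under 0.05, where 7.89% of all genes had one. The EV spread rested largely on mouse 4, the lowest library, without which the log2 fold change was 0.18.

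Jak1, which pairs with Jak2, Jak3 or Tyk2 on many receptors of interferons and interleukins, was the steadiest of the 9 genes. Jak1 (ENSMUSG00000028530; chromosome 4, 101152367 to 101265282, minus strand) had 237, 224, 267, 199.96 and 236 CPM in EV mice 1 to 5. Jak1 had 272, 258, 268 and 239 CPM in mice 1, 2, 3 and 5 of the sgZrsr2 group. The coefficient of variation over the 9 libraries was 9.8%, against 13.4% to 27.6% for the others. As for Jak2, EV mouse 4 was the lowest library and EV mouse 3 the highest of its group, and the groups overlapped (log2 fold change 0.16, SE 0.11, interval -0.08 to 0.39; exact permutation p = 0.0794, edgeR adjusted p = 0.737).

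Jak1 and Jak2 moved together over the libraries. As a description, Pearson's r of their log2 CPM was 0.91 and Spearman's rho 0.83 over 9 libraries, which share the TMM scaling. Among the 7975 genes whose mean reached 20 CPM, Jak1 ranked 18 by likeness to Jak2. The 3 genes most like it were Rab3gap1 (r = 0.968, mean 59.8 CPM), Zcchc6 (r = 0.958, mean 119 CPM) and Atad2b (r = 0.957, mean 40.6 CPM). Each of these had a log2 fold change of 0.15 to 0.24, none past the adjusted threshold.

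Jak3, the kinase that binds the common gamma chain of lymphoid interleukin receptors, was the most abundant of the 9 per length and showed no shift between groups. Jak3 (ENSMUSG00000031805; chromosome 8, 71676296 to 71690575, plus strand) had 253, 252, 354, 332 and 271 CPM in EV mice 1 to 5. The sgZrsr2 libraries were at 246, 243, 359 and 284 CPM in mice 1, 2, 3 and 5. Each group thus had libraries at both ends of the range, and the means of 292 ± 47.3 and 283 ± 54.3 CPM (SD) were within the spread (log2 fold change -0.05, SE 0.16, interval -0.39 to 0.3; exact permutation p = 0.841). The log2 fold change was -0.28 without the 3 libraries with high erythroid sums. That fit, also given for other genes below, kept only sgZrsr2 mice 1 and 2 in their group, the closest pair of libraries above. Those mice had the lowest Jak3 levels of all libraries, so a lower value follows from the choice of libraries. Of the 14 lymphoid markers, 5 (Cd3d, Cd3e, Cd3g, Cd8a and the B cell gene Ms4a1) were under 1 CPM in all 9 libraries and 4 were at 1 CPM or more in all. Lck, a kinase of T cells looked at after the values were seen, was at 8.77 to 20.6 CPM.

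Tyk2, which serves type I interferon and interleukin 12 receptors, varied most, and not by group. Tyk2 (ENSMUSG00000032175; chromosome 9, 21104069 to 21127346, minus strand) had 72, 76.1, 42.9, 69.1 and 79.2 CPM in EV mice 1 to 5. With sgZrsr2 it was at 43.5, 46, 86.8 and 90.2 CPM in mice 1, 2, 3 and 5. EV mouse 3 and sgZrsr2 mice 1 and 2 made a low set at 42.9 to 46 CPM, and the other 6 libraries lay at 69.1 to 90.2 CPM with nothing between, a grouping seen in the values and given as a description. The highest library had 2.1 times the level of the lowest. The group means were almost the same, 67.9 ± 14.5 and 66.6 ± 25.3 CPM (log2 fold change -0.03, SE 0.26; exact permutation p = 0.905), and the interval of -0.59 to 0.54 was the widest among the kinases. Without EV mouse 5 and sgZrsr2 mice 3 and 5, the 3 libraries with high erythroid sums, it was -0.53, short of the adjusted threshold.

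Stat3, the factor activated by interleukin 6 family cytokines and by granulocyte colony-stimulating factor, was high in the 3 libraries low in Tyk2. Stat3 (ENSMUSG00000004040; chromosome 11, 100885098 to 100939540, minus strand) had 173, 173, 348, 215 and 184 CPM in EV mice 1 to 5. Among the sgZrsr2 mice it had 280.2, 287, 264 and 222 CPM (mice 1, 2, 3 and 5). The 3 libraries low in Tyk2 had the 3 highest Stat3 levels, 280.2 to 348 CPM, against 173 to 264 CPM in the other 6. The ratio of Stat3 to Tyk2 CPM was 6.24 to 8.1 in these 3 libraries, while elsewhere it lay between 2.27 and 3.12. This ratio restates the 2 levels, as the libraries were picked for low Tyk2. Pearson's r of log2 CPM between the genes was -0.7 over 9 libraries but 0.56 over the 6 without these 3.

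The group difference of Stat3 depended on EV mouse 3. Over all libraries the means were 218 ± 74.3 and 263 ± 29.4 CPM (log2 fold change 0.27, SE 0.21, interval -0.19 to 0.73; exact permutation p = 0.302, edgeR adjusted p = 0.756). Without that mouse the log2 fold change was 0.49, still short of the adjusted threshold. EV mouse 3 had the highest Stat3 level of all libraries, so a larger value follows from leaving it out. The 4 other EV libraries, at 173 to 215 CPM, lay below all 4 sgZrsr2 libraries. This mouse was singled out after the values were seen, and how many of all genes would part in this way was not computed.

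**Figure D2:**
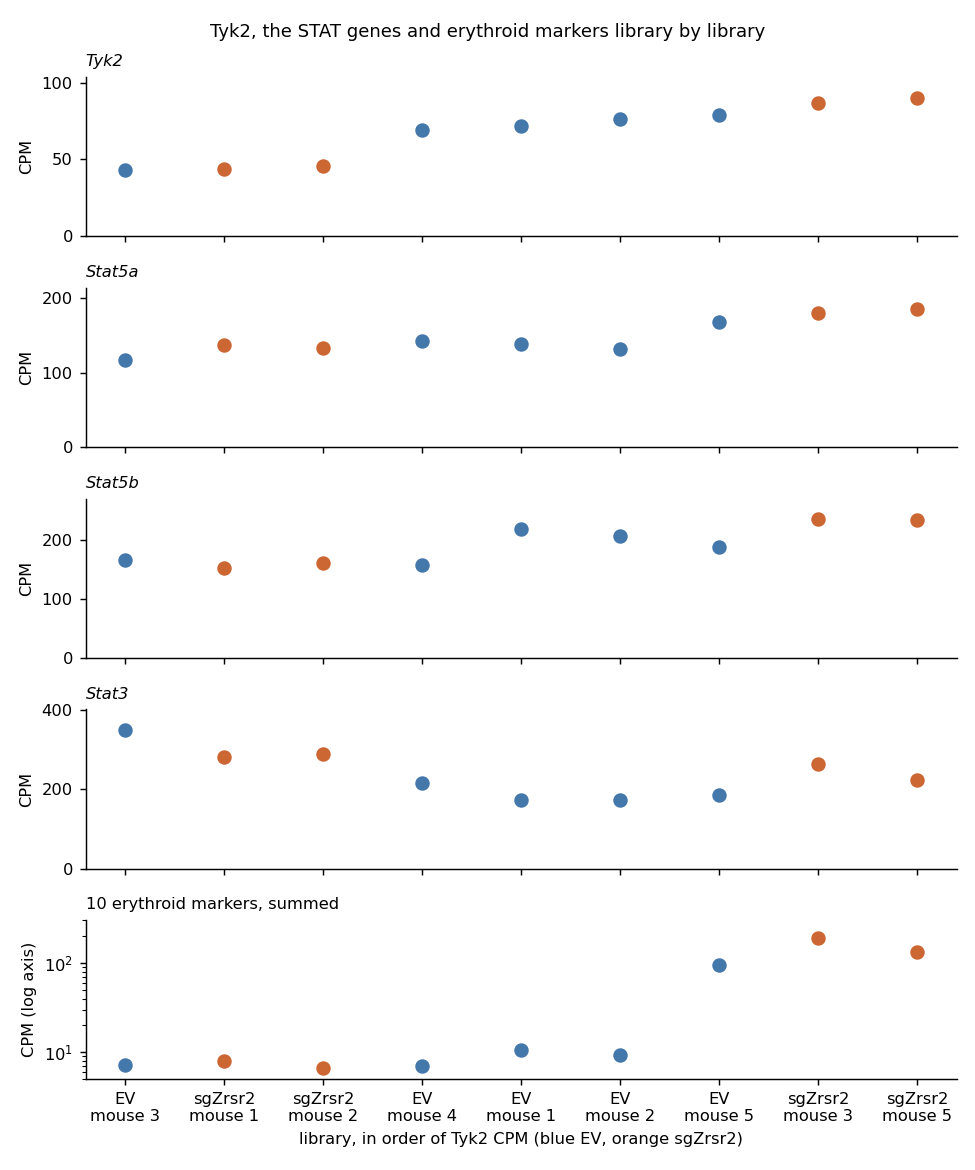
CPM of Tyk2, Stat5a, Stat5b and Stat3 and the summed CPM of 10 erythroid markers (log axis), with the 9 libraries in order of Tyk2 CPM, EV in blue and sgZrsr2 in orange. The 3 libraries at the left, low in Tyk2, hold the highest Stat3 levels (280.2 to 348 CPM), and the 3 at the right, high in Tyk2 and Stat5a, hold the erythroid sums of 93.8 to 190.1 CPM.

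Stat5a and Stat5b, the factors downstream of the thrombopoietin and erythropoietin receptors, differed between libraries more than between groups. Stat5a (ENSMUSG00000004043; chromosome 11, 100859351 to 100885169, plus strand) had 138, 132, 117, 143 and 168 CPM in EV mice 1 to 5. The sgZrsr2 mice 1, 2, 3 and 5 had 137, 133, 180.1 and 186 CPM. The 3 highest libraries, EV mouse 5 and sgZrsr2 mice 3 and 5 at 168 to 186 CPM, stood above the other 6 at 117 to 143 CPM and were the 3 with the high erythroid and megakaryocyte sums. They also had the 3 highest Tyk2 levels, 79.2 to 90.2 CPM against at most 76.1 CPM. The part of erythroid, megakaryocyte or other cells in this was not tested. Without those 3 libraries the log2 fold change of Stat5a was 0.03 in place of 0.19 (SE 0.14, interval -0.13 to 0.5, exact permutation p = 0.222 over all libraries). This fit left out the 3 highest levels of Stat5a, including sgZrsr2 mice 3 and 5, so a lower value follows from the choice of libraries. The same holds for Tyk2.

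Stat5b (ENSMUSG00000020919; chromosome 11, 100780731 to 100850724, minus strand) had 218, 207, 166, 158 and 188 CPM in EV mice 1 to 5. The sgZrsr2 values were 152, 160.2, 235 and 234 CPM for mice 1, 2, 3 and 5. Mice 3 and 5 of the sgZrsr2 group were the highest of all libraries, and mice 1 and 2 lay below 4 of the 5 EV libraries. The groups had means of 187 ± 25.6 and 195 ± 45.4 CPM (log2 fold change 0.06, SE 0.17, interval -0.3 to 0.43; exact permutation p = 0.714). Without EV mouse 5 and sgZrsr2 mice 3 and 5 the log2 fold change turned to -0.25, also short of the threshold. That fit left out the highest Stat5b levels, so a lower value again follows from the choice of libraries.

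The sum of Stat5a and Stat5b, which does not depend on how reads were split between them, was 356, 338, 283, 301 and 356 CPM in EV mice 1 to 5. In sgZrsr2 mice 1, 2, 3 and 5 it was 289, 293, 415 and 421 CPM. The sgZrsr2 libraries therefore took both some of the lowest sums and the 2 highest. Stat5b exceeded Stat5a in all 9 libraries (ratio at most 1.58), and that ratio overlapped between groups (1.36 ± 0.232 and 1.22 ± 0.0818).

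Stat6, the factor of interleukin 4 and interleukin 13, had a lower mean with sgZrsr2 but overlapped. Stat6 (ENSMUSG00000002147; chromosome 10, 127642986 to 127660957, plus strand) had 111, 116, 129, 102 and 104 CPM in EV mice 1 to 5. With sgZrsr2 it was at 85, 92.3, 125 and 117 CPM in mice 1, 2, 3 and 5. The 2 lowest libraries were sgZrsr2 mice 1 and 2, and the means of 112 ± 11 and 105 ± 19 CPM differed by less than the spread (log2 fold change -0.1, SE 0.14, interval -0.4 to 0.2; exact permutation p = 0.46). Leaving out the 3 libraries with high erythroid sums moved the log2 fold change to -0.36, short of the adjusted threshold. This fit kept only the 2 lowest libraries in the sgZrsr2 group, so a lower value follows from the choice of libraries.

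As a share of the 5 STAT genes, Stat6 separated the groups by a narrow gap. Per kilobase of annotated exon it made 22.5%, 24.1%, 24.2%, 23.1% and 21.9% of the summed level in EV mice 1 to 5. The share was 18.2%, 19.1%, 21.3% and 21.3% in sgZrsr2 mice 1, 2, 3 and 5. The order of the groups was the same per kilobase of the longest coding transcript (17% to 19.4% against 13.5% to 16.6%) and in CPM without a length (15.4% to 17.5% against 12.2% to 14.9%). These 3 versions rescale the same counts, and the shares of the 5 genes depend on each other, so they are not separate looks. This share was looked at after the values were seen and carries no test. In CPM of single genes 3.06% of all genes did not overlap, and no such figure was computed for shares. None of the other 8 shares, of the 4 kinases and the 4 other STAT genes, separated the groups.

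Stat4, the factor of interleukin 12 signalling in T and natural killer cells, was the lowest of the 9 genes. Stat4 (ENSMUSG00000062939; chromosome 1, 51987148 to 52107188, plus strand) had 37.5, 35.6, 36.1, 23.1 and 29.5 CPM in EV mice 1 to 5. Its sgZrsr2 levels were 41.6, 44.1, 35.7 and 25.9 CPM for mice 1, 2, 3 and 5. EV mouse 4 and sgZrsr2 mouse 5 were low within their groups and sgZrsr2 mice 1 and 2 were the highest of all. The groups overlapped (32.4 ± 6.01 and 36.8 ± 8.08 CPM; log2 fold change 0.19, SE 0.19, interval -0.23 to 0.6; exact permutation p = 0.333). The value was 0.38 without the 3 libraries with high erythroid sums, and 0.08 without either EV mouse 4 or sgZrsr2 mouse 2. The first of these fits kept only sgZrsr2 mice 1 and 2, the highest, in their group, so a higher value follows from the choice of libraries. Of the natural killer markers Nkg7 was at 46 to 92.7 CPM over the 9 libraries; its relation to Stat4 was not tested.

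**Figure D3:**
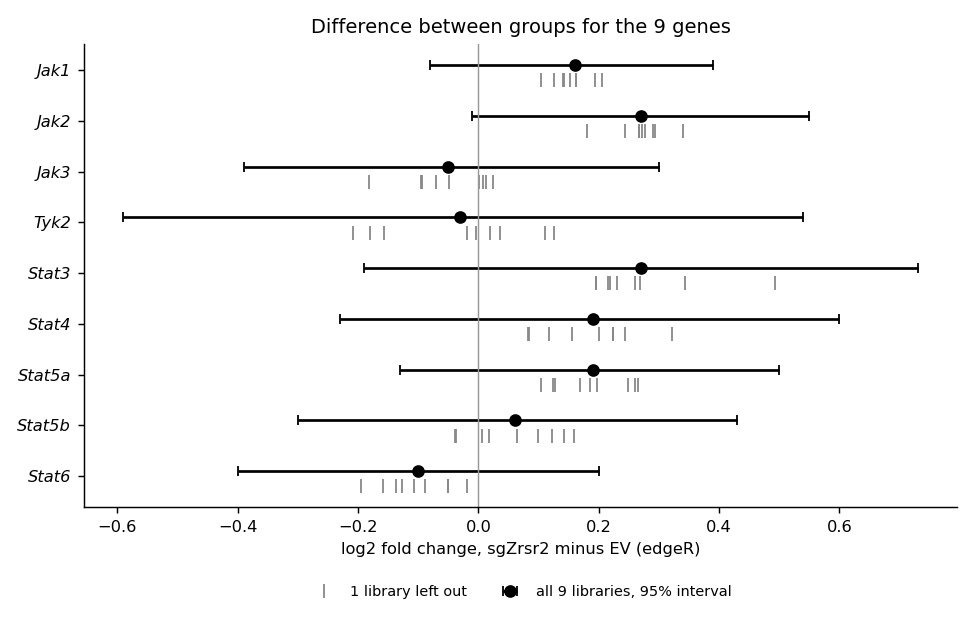
Log2 fold change of the 9 genes, sgZrsr2 minus EV, from edgeR over all 9 libraries (dots, with 95% intervals) and from the fits that each left out 1 library (grey ticks). The intervals of all 9 genes include 0; the tick farthest right of the Stat3 row, at 0.49, is the fit without EV mouse 3.

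Set beside each other per length, the genes kept a broad order. The mean over 9 libraries, in CPM per kilobase of annotated exon, was 53.9 ± 8.86 for Jak3, 34.5 ± 6.03 for Stat5b and 33.9 ± 3.32 for Jak1. Stat3 at 25 ± 6.33, Stat6 at 24.8 ± 3.32 and Stat5a at 20.8 ± 3.35 followed. The lowest were Jak2 at 15.9 ± 2.36, Tyk2 at 9.81 ± 2.71 and Stat4 at 8.87 ± 1.79. Jak3 stood above Stat5b without overlap of their ranges. Stat5b and Jak1, Stat3 and Stat6, and Tyk2 and Stat4 did not differ beyond their spread, since the first of each pair was higher in 6, 3 and 6 of 9 libraries. Jak2, the mutated kinase, thus made 9.82% to 16.6% of the summed level of the 4 kinases, below Jak3 (42.8% to 56.1%) and Jak1 (25% to 35.1%), and above Tyk2 (4.94% to 11.3%) in each library by this length. The order rests on GENCODE M21 exons and moves with the length used: per kilobase of the longest coding transcript Stat3 (52.8) and Stat5a (41.1) stood above Stat5b (36.6), while Jak3 stayed first and Stat4 last. By that length Tyk2 exceeded Jak2 in 5 of 9 libraries. The deposited coordinates of Tyk2 and Stat4, the lowest of the order, differ from those of GENCODE M21. Their lengths may therefore not match the gene models behind their counts.

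**Figure D4:**
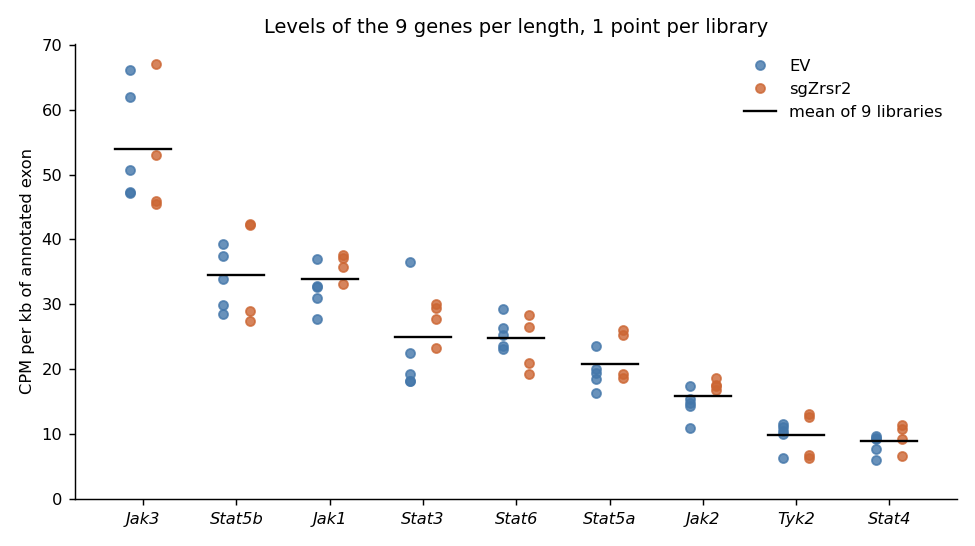
Level of the 9 genes in CPM per kilobase of annotated exon (vertical axis, from 0), 1 point per library, EV in blue and sgZrsr2 in orange, with the mean of 9 libraries as a line. Jak3 lies above the other genes at a mean of 53.9, and Tyk2 and Stat4 lie lowest at 9.81 and 8.87.

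The promoter windows of the 9 genes, each 300 bases long and mostly upstream of a RefSeq start (GRCm38.p6, 12 windows, as 3 genes had 2), were searched for TTCNNNGAA, the letters of the motif that STAT dimers bind, which reads the same on both strands. It occurred in 0 of the 12 windows, and in 8.3% of all 32851 windows. The form with 1 more free base between TTC and GAA, known for Stat6, was likewise in 0 of 12, against 6.95% of all windows. These counts describe the letters in these windows only.

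Other genes of the pathway were counted by role. The shares of genes above 0 stand against 48.5% of all genes tested. Of 36 cytokine receptor chains 31 were tested, 21 with a log2 fold change above 0 and 10 below (median 0.13), and 0 passed the adjusted threshold. The smallest unadjusted p belonged to Il13ra1, a chain of the interleukin 13 receptor that signals through Stat6, with means of 3.5 ± 1.68 CPM (EV) and 1.75 ± 0.606 CPM (sgZrsr2) (log2 fold change -1, SE 0.4; edgeR adjusted p = 0.714, exact permutation p = 0.0635). Its groups overlapped.

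The 20 inhibitors had 15 genes above 0 and 5 below (median 0.16), again with 0 past the adjusted threshold. At an unadjusted p under 0.05, 3 were higher, where 3.87% of all genes were, and 0 were lower. Socs4, of the family that binds and degrades activated receptors and kinases, had the smallest p. Its means were 47 ± 7.45 CPM (EV) and 65.4 ± 8.43 CPM (sgZrsr2), without overlap (log2 fold change 0.48, SE 0.14; exact permutation p = 0.0159, the smallest that 5 against 4 can give; edgeR adjusted p = 0.714). It was the 1 inhibitor of 20 without overlap, where 1.75% of all genes had sgZrsr2 entirely above.

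Of 20 genes that STAT factors are known to activate, 7 were above 0 and 13 below (median -0.14), with 0 past the adjusted threshold and 3 lower at an unadjusted p under 0.05, where 2.98% of all genes were. Ccnd1, which encodes the G1 cyclin D1, had the smallest p, with means of 101 ± 19.9 CPM (EV) and 76.6 ± 1.6 CPM (sgZrsr2) (log2 fold change -0.4, SE 0.14; exact permutation p = 0.0794, edgeR adjusted p = 0.714). The groups of Ccnd1 overlapped, and 1 other target of the 20 did not overlap, where 3.06% of all genes did not. The 11 partners, which include adaptors, had 10 above 0 and 1 below (median 0.18) and 0 past the threshold. Sh2b1, an adaptor that binds Jak2, had the smallest p among them, at 120 ± 10.9 and 142 ± 4.31 CPM (log2 fold change 0.24, SE 0.1; exact permutation p = 0.0317, edgeR adjusted p = 0.714). The groups of Sh2b1 overlapped. The lists were written from general knowledge but with earlier results of these data known, and the same libraries serve all of them.

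**Figure D5:**
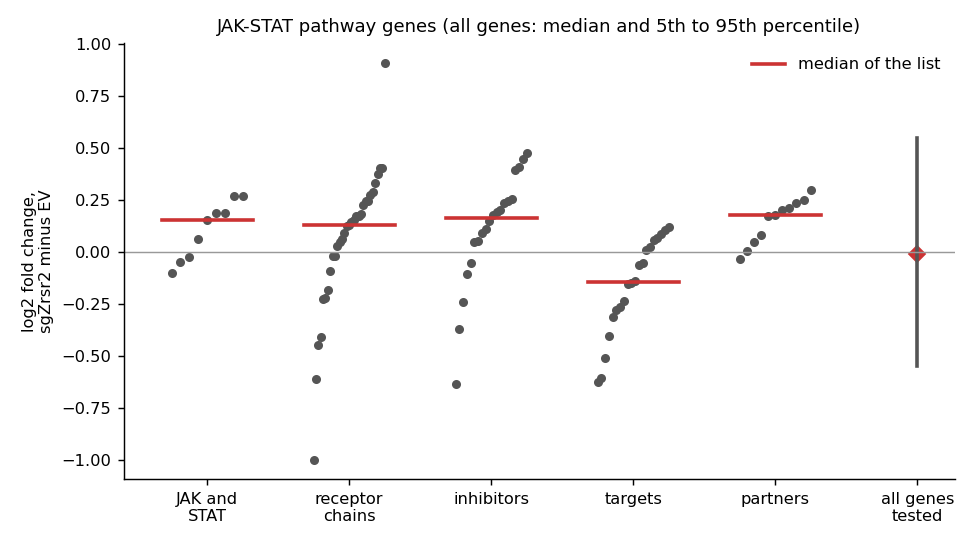
Log2 fold change, sgZrsr2 minus EV, of each tested gene in the 5 groups (9 Janus kinases and STAT factors, 31 receptor chains, 20 inhibitors, 20 targets, 11 partners), with the median as a red line, beside the median and the 5th to 95th percentile of all genes tested (-0.55 to 0.55). The medians are 0.16, 0.13, 0.16, -0.14 and 0.18, beside -0.01 for all genes; the percentile range is of single genes and is no yardstick for a median.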

How the data were processed

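The authors deposited RSEM expected counts per Ensembl gene, not normalized, with 1 column per library. Libraries were made from 5 ng of RNA by poly(A) selection and PCR, per the labels' protocols. Cutadapt 1.11, RSEM 1.2.30 and GRCm38 are named in the submitters' processing notes; the aligner, annotation release and strand setting are not given in the sources used here. PCR duplicates were not separable, so counting error is a lower limit on error.

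Counts were rounded, filtered with filterByExpr (minimum count 10, minimum total 15; 14944 genes, 99.93% of counts kept), scaled by TMM and compared with edgeR 4.0.16 (glmQLFit and glmQLFTest, R 4.3.3), with Benjamini-Hochberg adjustment over all genes tested. A standard error is the log2 fold change divided by the square root of F, and 95% intervals use the test's degrees of freedom. Single genes were compared by two-sided exact permutation tests of CPM over 126 splits (smallest p 0.0159). The fit was tested on simulated counts. Exon lengths and transcripts came from GENCODE M21, promoters from RefSeq (9 of 9 genes matched), and alignments from Biopython 1.88. The genome sequence and protein sequences were not used here.

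The members and lists were chosen with earlier results of these data known. The rule for named genes was the 9 members, the gene of smallest p in each pathway list, the 3 genes most like Jak2 by Pearson's r, and Zrsr2; other names were chosen after their values were seen. Alternatives were RLE, upper-quartile and no scaling factors, 2 other filters, DESeq2 1.42.0, limma 3.58.1 (voom, sample weights), unrounded counts, robust dispersion, a replicate block by mouse number, sgZrsr2 mice 1 and 2 averaged, leaving out each library, and leaving out EV mouse 5 with sgZrsr2 mice 3 and 5.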

Additional observations from a re-analysis of the deposited data

Results flagged for a closer look

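For each gene and group, the distance from the highest or lowest library to the next was set against the whole spread of that group. In 18 such sets, 2 values stood out, where chance gives about 0.9, and both belong to EV mouse 3. The sets share the same libraries, so an unusual library can raise several values together, and the 2 are not separate events. Tyk2 was at 42.9 CPM there against 69.1 to 79.2 CPM in the other EV libraries, a gap of 0.723 of the range. Stat3 was at 348 CPM against 173 to 215 CPM, a gap of 0.755 of the range. The same 2 genes had like levels in sgZrsr2 mice 1 and 2 (Tyk2 43.5 and 46 CPM, Stat3 280.2 and 287 CPM). EV mouse 3 also had the lowest TMM factor, 0.8936, whose part in these values was not tested.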

How the results depend on the processing

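Over 12 alternatives and 9 fits that each left out a library, 0 of the 9 genes passed the adjusted threshold, and Jak1, Jak2, Stat3, Stat4, Stat5a and Stat6 kept their direction (Jak2 0.18 to 0.34, Stat3 0.2 to 0.58, Stat4 0.06 to 0.38, Stat6 -0.36 to -0.02). Jak3 changed sign with library totals alone (0.0036) and with sgZrsr2 mice 1 and 2 averaged (0.011), and ran from -0.18 to 0.024 with a library left out. Tyk2 did so in the same 2 settings (0.011 and 0.12; -0.21 to 0.13 with a library left out). Stat5b turned with limma-voom and sample quality weights (-0.21), without EV mouse 5 and sgZrsr2 mice 3 and 5 (-0.25) and with the mouse number as a replicate block (-0.016), and ran from -0.039 to 0.16 with a library left out. The cause was not tested. Of all genes, DESeq2 called 16 and the averaged libraries 1, where edgeR called 0 (1024 at an unadjusted p under 0.05). The labels do not say whether equal mouse numbers pair the samples. Deviations of same-numbered mice from their group means correlated at -0.227, -0.0904, -0.404 and 0.369, which does not settle it. With the mouse number as a block 0 genes passed, and the count at an unadjusted p under 0.05 was 341. At an unadjusted p under 0.05, limma-voom gave 3 of the 9 genes (Jak1, Jak2 and Stat3) and 2551 of all genes. Library totals alone gave 1 (Jak2) and 1010, leaving out EV mouse 3 gave 2 (Jak2 and Stat3) and 1102, and leaving out EV mouse 5 with sgZrsr2 mice 3 and 5 gave 2 (Tyk2 at -0.53 and Stat6 at -0.36) and 1692. Counting error at the lowest count, 3.28% for Stat4, is a lower limit on the technical error, which was not measured.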
